A study of Drosophila melanogaster with 3 samples.

Results

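The DNA replication genes considered here are 34 genes of Drosophila melanogaster that act at the origin of replication, at the replication fork, in nucleotide supply, in chromatin assembly behind the fork, or in the transcription of these genes. They were chosen by name. A member was matched where its symbol stood in the symbol column of the gene list, and 33 of the 34 were found among 13988 listed features. The member that was not matched, RpA-70, is the large subunit of the single-strand binding protein. RefSeq's gene table gives RPA1 as its symbol, and RPA1 is described on its own and enters no sum or count of the 33.

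DNA is copied in S phase from origins that are licensed beforehand. The origin recognition complex, Cdc6 and dup (the fly Cdt1) load the MCM helicase onto DNA, geminin inhibits dup, and Mcm10 and Cdc45 turn the loaded helicase into an active one. The transcription factor E2f1 with its partner Dp drives many of these genes as cells pass from G1 into S phase, and in flies Dref binds the promoters of several of them, that of PCNA included. In the larval brain, neuroblasts divide repeatedly. In most of them each division gives a ganglion mother cell that divides once more into neurons or glia, which then no longer cycle.

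Single-cell transcriptomes were made from brains of larvae aged 72 to 96 hours after egg laying, with neuroblasts and their lineages captured by fluorescence-activated sorting. Each of the 3 genotypes gave 1 library, and all 3 libraries carry batch 1. All animals carried Sqh::GFP, a tagged myosin light chain, together with worGal4 and UAS-mCherry::Jupiter on chromosome 3, so the marker is driven in neuroblasts through worniu and is inherited by their progeny. The control library had nothing else, the mud-labelled library also carried the mud4 allele on the X chromosome, and the nanobody library carried a UAS transgene that joins parts of Inscuteable and the Rock kinase domain to VhhGFP4, a nanobody against GFP. The study's title names the size of the daughter cells and its part in cell cycle progression and fate. With 1 library a genotype there is no test between genotypes, and intervals given for them cover counting error only.

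Cells were grouped by the UMI counts of marker genes, not by clusters. The dpn gate held cells with at least 1 UMI of dpn (deadpan, a neuroblast transcription factor), and the ase gate held cells with at least 2 UMIs of ase (asense) and none of dpn. The Hey gate needed at least 3 UMIs of Hey, which marks newborn neurons that receive Notch signal, the nSyb gate at least 1 UMI of nSyb, a synaptic vesicle protein of neurons, and the repo gate at least 2 UMIs of repo, a glial factor. No member was used for a gate. Called cells numbered 14852 in control, 15194 in the mud-labelled library and 14415 in the nanobody library, with medians of 6528.5, 6176 and 6863 UMIs. In the same order the dpn gate held 457, 862 and 854 cells, and the nSyb gate held 5004, 5724 and 5218. Gates overlap, since 49, 141 and 86 cells met both the dpn and the nSyb gate. Libraries shared 59 to 78 called barcodes pairwise.

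The labels could be checked only in part. The transcript of mud stood at 111 CPM (a gene's share of all UMIs, scaled to a common total) in control, 139 in the mud-labelled library and 110 in the nanobody library, so its level does not check the allele. In the same order insc (Inscuteable) stood at 33.9, 30.7 and 46.7 CPM, and Rok (the Rock kinase) at 109, 140 and 141 CPM. The tag mCherry stood at 135, 45.3 and 69.3 CPM, and GFP at 5.58, 4.50 and 5.18 CPM. The cause of the mCherry difference was not tested. Summed CPM of the 7 neuroblast markers in the dpn gate was 3292, 3138 and 3039, against 135, 233 and 137 in the nSyb gate. The dpn gate also held transcripts of other cells: 974, 939 and 1115 CPM of the 7 neuron markers, 625, 520 and 546 CPM of the 7 glial markers with 1 of them at 0 in control, and at most 2.77 CPM of the 8 hemocyte markers, of which 3 were at 0 in each library. Lists for other progenitors had transcripts there too: 648, 522 and 678 CPM of the 5 ganglion mother cell markers. The 6 markers of type II lineages or intermediate progenitors stood at 970, 863 and 763 CPM. For the 5 optic lobe markers the values were 1059, 843 and 1006 CPM. The part of all these cells in the values of the DNA replication genes was not tested.

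The members took the highest share of the transcriptome in the dpn gate, in each library. Pooled over its cells, 0.714% of the UMIs in control were on the 33 genes, 0.621% in the mud-labelled library and 0.669% in the nanobody library. In the ase gate the share was 0.238%, 0.252% and 0.244%. It was 0.160%, 0.181% and 0.162% in the Hey gate and 0.128%, 0.159% and 0.133% in the nSyb gate. The order dpn, ase, Hey, nSyb was the same in all 3 libraries. The 3 libraries of a gate did not overlap those of the next gate among dpn, ase and Hey, while the Hey and nSyb gates lay close, with the lowest Hey value 0.160% and the highest nSyb value 0.159%. Barcodes of 20 to 200 UMIs, which hold mostly free RNA, had 0.223%, 0.250% and 0.257% of their UMIs on the members, above the Hey and nSyb gates in each library and, in the nanobody library, above the ase gate as well. Roles differed in this. The 6 MCM genes summed to 230, 296 and 283 CPM in those barcodes, above the ase gate in each library (192, 234 and 228 CPM). The 7 licensing genes summed to 214, 219 and 240 CPM, above the ase gate (219, 232 and 228 CPM) in the nanobody library only. The part of free RNA in the levels of the ase, Hey and nSyb gates was not tested.

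**Figure D1:**
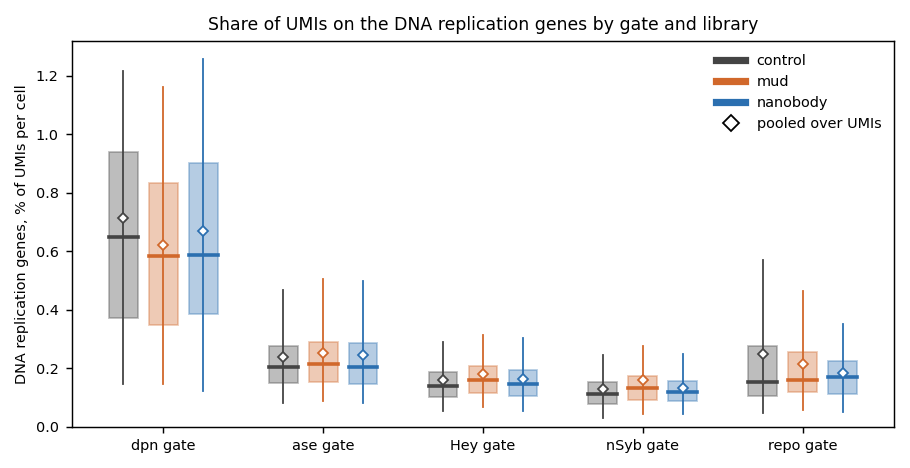
Share of each cell's UMIs on the 33 DNA replication genes, in percent, by gate and library; boxes span the quartiles over cells with a line at the median, whiskers span the 5th to 95th percentile, and diamonds are the share pooled over all UMIs of the gate. The dpn gate stands above the others in each library, at 0.621% to 0.714% pooled, and is the widest.

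Cells of the dpn gate also had the widest spread in percent of UMIs, which is not scaled to their higher level. The middle 50% of its cells ran from 0.371% to 0.938% of UMIs in control, from 0.347% to 0.834% in the mud-labelled library and from 0.386% to 0.903% in the nanobody library. Since cells differ in depth, each was also thinned to 1000 UMIs, after which 63.2% of the dpn gate in control, 60.7% in the mud-labelled library and 63.6% in the nanobody library kept at least 5 member UMIs. The same share was 11.4%, 13.2% and 12.8% in the ase gate and 2.10%, 3.32% and 2.28% in the nSyb gate. PCNA, the sliding clamp that holds polymerases on DNA, had a UMI in 44.9%, 40.1% and 40.5% of thinned dpn-gate cells, in 14.2%, 14.2% and 15.1% of ase-gate cells, and in 3.46%, 4.37% and 3.68% of nSyb-gate cells. Without thinning, at medians of 9196 to 12024 UMIs in the dpn gate and 7678 to 8760.5 in the nSyb gate, PCNA was detected in 79.5% to 86.2% of dpn-gate cells and in 19.2% to 23.7% of nSyb-gate cells.

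The gates were compared gene by gene on UMIs summed per library and gate, using the cells that met exactly 1 gate and blocking on library, so each gate has 3 sums of different genotype. CPM values in the next paragraphs are of those cells, in the order control, mud and nanobody. Fold changes are those of edgeR's quasi-likelihood fit over 7912 genes, on the log2 scale, and a gene was called at an adjusted p under 0.05 over all of them. From the dpn to the ase gate, 31 of the 33 members were lower, 1 was higher and 1 was not called, with a median log2 fold change of -1.50, while the median over all tested genes was 0.09. Over all genes, 52% were called, 21.8% lower and 30.3% higher. Dp was the member whose values in the 3 libraries overlapped between the gates, and such overlap was not counted over all genes.

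All 6 subunits of the MCM helicase were lower in the ase gate than in the dpn gate. Mcm6 stood at 202, 168 and 194 CPM in the dpn gate and at 23.8, 31.8 and 33.2 CPM in the ase gate. Its log2 fold change of -2.48 (SE 0.135, adjusted p = 4.69e-08) was the lowest of the helicase subunits, and that of Mcm3, at -1.71, the highest. The 7 licensing genes were lower too, and dup, which brings the helicase to origins, had the lowest ratio of all members. It stood at 237, 227 and 240 CPM in the dpn gate and at 29.1, 35.01 and 30.2 CPM in the ase gate (log2 -2.70, SE 0.101, adjusted p = 1.67e-09). Its inhibitor geminin was lower by a smaller ratio, at 355, 297 and 340 CPM against 102, 103 and 105 CPM (log2 -1.48, SE 0.083, adjusted p = 5.56e-08). The smallest difference in this group was that of Cdc6, which with the origin recognition complex loads the helicase, at -0.93 on the log2 scale. Of the helicase activators, Mcm10 had a log2 fold change of -2.26 and Cdc45 of -1.12.

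Genes of the fork were lower by unequal amounts. PCNA stood at 826, 779 and 807 CPM in the dpn gate and at 190, 221 and 204 CPM in the ase gate (log2 -1.78, SE 0.134, adjusted p = 4.22e-07). The 4 clamp loader genes, which open and close the PCNA ring, had smaller differences, from -0.79 for the large subunit Gnf1 to -1.18 for RfC38. RnrL and RnrS, the subunits of ribonucleotide reductase that makes deoxynucleotides, were both lower, RnrL from 242, 196 and 216 CPM to 50.6, 50.1 and 53.6 CPM (log2 -1.88, adjusted p = 1.11e-07) and RnrS at -2.03. RPA2, which coats single-stranded DNA, had a log2 fold change of -1.67. The flap endonuclease Fen1, the exonuclease tos (the fly Exo1) and the helicase Blm were called lower at -0.69, -0.74 and -1.09. Of the chromatin genes, the histone chaperone asf1 had the lowest value at -1.59 and Caf1-105, a subunit of chromatin assembly factor 1, the highest at -0.84, with Caf1-180 and the histone mRNA binding protein Slbp between them. Among the 31 members called lower, none changed direction in the 12 alternatives, and tos alone lost its call in one of them, with adjusted p = 0.0648 after thinning. The genes tos, Blm, RfC38, Mcm3, Mcm10, Cdc45, Cdc6, dup, Orc1, Orc2, Orc5, Orc6 and Dp overlap a gene on the other strand.

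**Figure D2:**
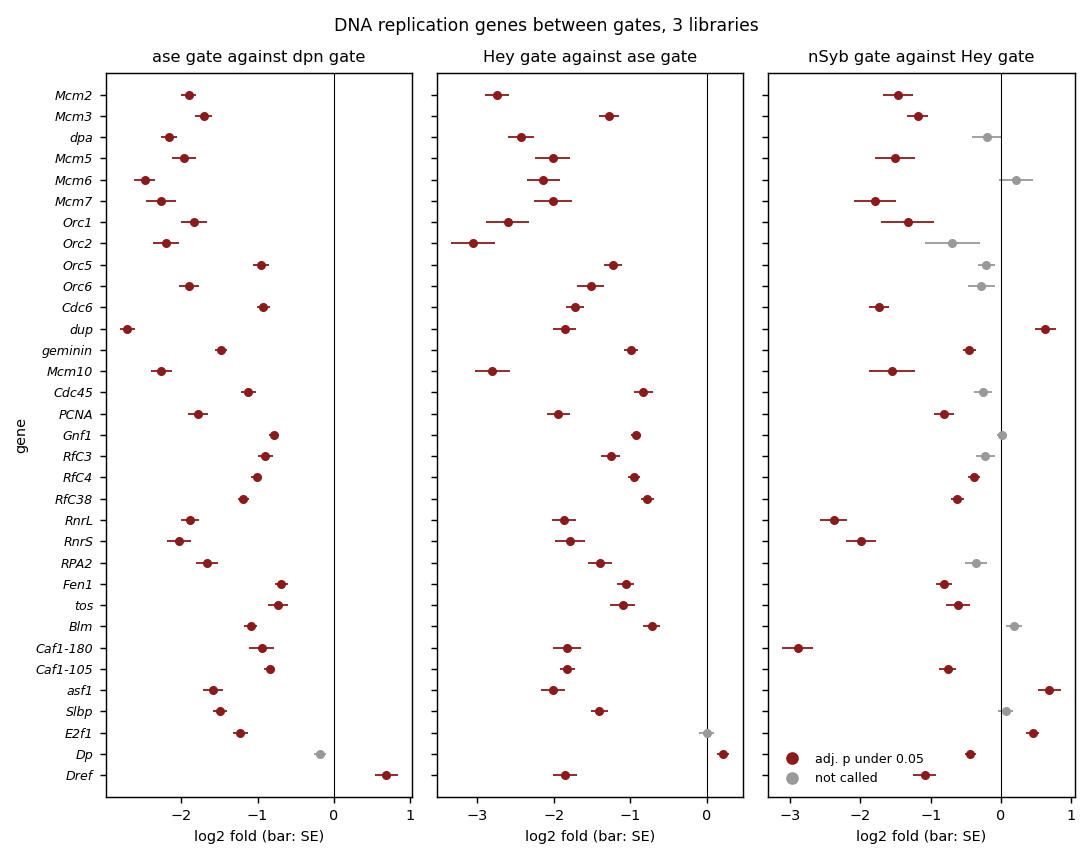
Log2 fold change of each member between gates from edgeR's fit to the sums of 3 libraries, with the SE as a bar; red points passed an adjusted p under 0.05 and grey points did not. Members lie left of 0 in the ase against dpn and the Hey against ase panels apart from Dref in the first and Dp in the second, with E2f1 near 0 in the second, and spread on both sides of 0 in the nSyb against Hey panel.

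From the ase to the Hey gate most members were lower once more. Of the 33, 31 were lower and 1 higher, with a median of -1.72 against -0.01 over all genes, of which 54% were called, 28.4% lower and 25.6% higher. Over all cells of each gate, which overlap, the member median was -1.09. The lowest ratios belonged to Orc2, a subunit of the origin recognition complex, which went from 10.5, 20.7 and 14.6 CPM to 1.03, 2.11 and 2.78 CPM (log2 -3.05, SE 0.290, adjusted p = 1.78e-06), to Mcm10 (-2.80) and to Mcm2 (-2.74). Over the 12 alternatives Orc2 ran from -4.59 to -1.71, Mcm10 from -2.96 to -1.55 and Mcm2 from -2.93 to -1.65. PCNA went from 190, 221 and 204 CPM to 45.7, 68.5 and 59.6 CPM (log2 -1.94, adjusted p = 2.48e-07). RnrL was lower by a similar ratio, at 15.1, 14.8 and 15.9 CPM in the Hey gate (log2 -1.86). Members with smaller differences were Blm (-0.72), RfC38 (-0.78), Cdc45 (-0.83), Gnf1 (-0.93), RfC4 (-0.96) and geminin, which stood at 61.0, 56.9 and 50.1 CPM in the Hey gate. Between these, RPA2 had -1.40, tos -1.10, Mcm3 -1.28, asf1 -2.01, Slbp -1.40 and RnrS -1.79. The call for Cdc45 was lost after thinning, with adjusted p = 0.274.

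Between the Hey and the nSyb gate the set split. Of the 33 members 19 were called lower, 3 higher and 11 neither, against 60.7% of all genes called, 26.7% lower and 34% higher, and the median was -0.61 against 0.06. Caf1-180 and both reductase subunits had the lowest ratios of the set. Caf1-180 went from 27.1, 36.0 and 33.8 CPM to 2.87, 4.51 and 4.15 CPM (log2 -2.90, SE 0.217, adjusted p = 6.6e-08). RnrL went from 15.1, 14.8 and 15.9 CPM to 2.05, 2.95 and 2.78 CPM (log2 -2.38, adjusted p = 1.39e-07), and RnrS had -1.99. Mcm7 (-1.79), Cdc6 (-1.73) and Mcm10 (-1.55) were also lower, and PCNA reached 25.8, 31.5 and 31.1 CPM (log2 -0.81, adjusted p = 0.000309). The call for Mcm10 was not made when all cells of each gate were used (adjusted p = 0.246). After thinning 14 members were called, 2 higher and 12 lower, where 1778 of all 6482 genes tested were called higher and 1466 lower. Mcm3, Mcm10, Orc1, geminin, Fen1, Caf1-105, tos and dup were not among the members called.

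3 members were higher in the nSyb gate than in the Hey gate. The histone chaperone asf1 stood at 20.3, 23.9 and 18.9 CPM in the Hey gate and at 31.7, 30.5 and 28.9 CPM in the nSyb gate (log2 0.69, adjusted p = 0.00198, higher in 3 of 3 libraries). For dup the values were 10.6, 9.52 and 7.75 CPM against 12.9, 12.2 and 13.8 CPM (log2 0.63, adjusted p = 0.00285, higher in 3 of 3). Without the nanobody library the adjusted p of dup was 0.0922, and after thinning 0.445. The third, E2f1, is described with the transcription factors. Mcm6 (0.21), Blm (0.18), Slbp (0.07) and Gnf1 (0.02) were not called. RPA2 (-0.35) and Cdc45 (-0.26) were not called either, but RPA2 passed without the control library (adjusted p = 0.0432). The call for tos rested on the mud-labelled library, with adjusted p = 0.0501 without it, and Fen1 was lower at -0.81.

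**Figure D3:**
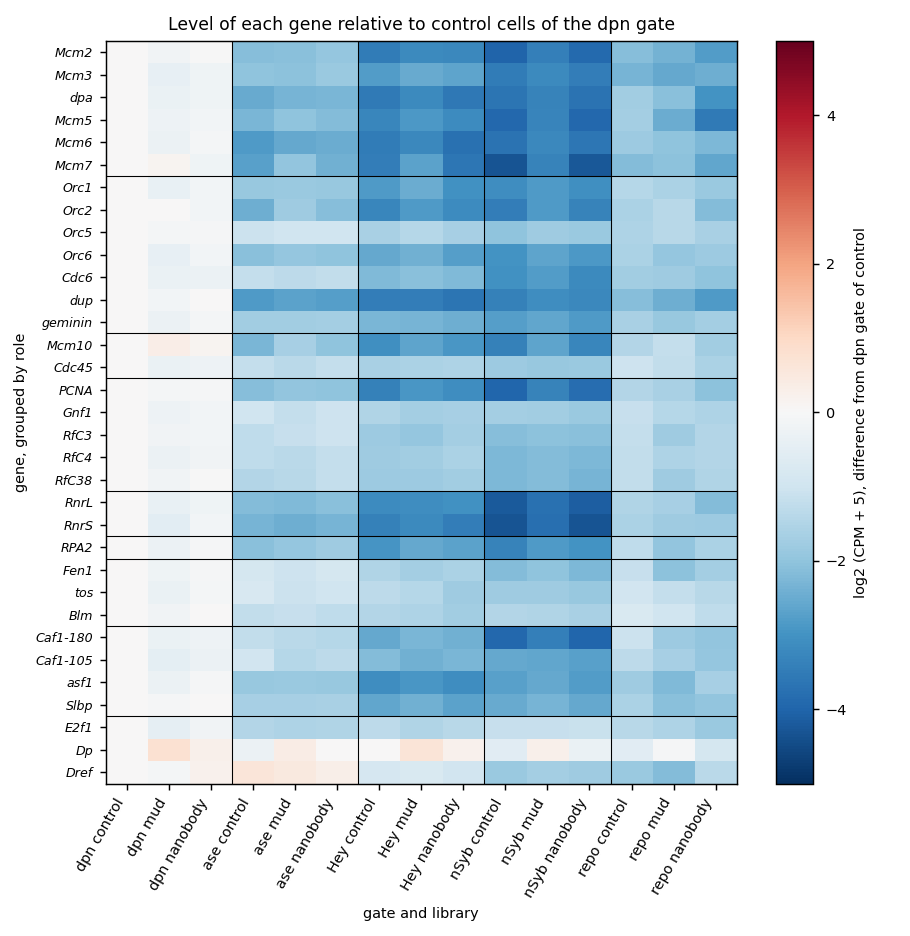
Level of each member in each gate and library as log2 of CPM plus 5, shown as the difference from the dpn gate of control, over all cells of a gate and grouped by role. Most rows turn blue from the dpn to the nSyb gate, as PCNA does from 776 to 45.3 CPM in control, while Dp stays between 193 and 497 CPM in the 4 neural gates and Dref is at its highest in the ase gate.

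The 3 transcription factors differed in pattern from one another. E2f1 was highest in the dpn gate at 1196, 939 and 1070 CPM and lower in the ase gate at 414, 382 and 397 CPM (log2 -1.23, SE 0.095, adjusted p = 5.52e-07). It did not pass the test between the ase and Hey gates (log2 -0.01, adjusted p = 0.966), and was higher in the nSyb gate, at 512, 526 and 531 CPM against 458, 384 and 441 CPM (log2 0.45, adjusted p = 0.001). Over all cells of each gate, E2f1 made up 16.2%, 13.8% and 15.3% of all member UMIs in the dpn gate and 40.5%, 33.0% and 39.8% in the nSyb gate. In barcodes of 20 to 200 UMIs E2f1 stood at 573, 783 and 675 CPM, above the nSyb gate in each library, and the part of free RNA in its neuronal level was not tested.

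Dp, the partner of E2f1, had the smallest differences of the set between the dpn and ase gates. Its levels were 298, 512 and 357 CPM in the dpn gate, 231, 364 and 290 CPM in the ase gate, 301, 466 and 341 CPM in the Hey gate and 190, 332 and 221 CPM in the nSyb gate. The ase against dpn difference was not called (log2 -0.19, adjusted p = 0.0583), although it was called in 7 of the 12 alternatives, among them median-of-ratios factors and the fit without the nanobody library (adjusted p = 0.0175 and 0.027). The Hey against ase difference was called (log2 0.21, adjusted p = 0.0343) but not without the control library or without the mud-labelled library (adjusted p = 0.0578 and 0.211), and 5 of the 12 alternatives in all did not call it. The lower level in the nSyb than in the Hey gate (log2 -0.44, adjusted p = 0.000275) was called with each library left out in turn, but not without the library block (adjusted p = 0.231). In each gate the mud-labelled library was the highest and control the lowest.

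Dref peaked in the ase gate. It stood at 206, 210 and 246 CPM in the dpn gate and at 335, 322 and 269 CPM in the ase gate, the only member called higher there (log2 0.69, SE 0.153, adjusted p = 0.00202, higher in 3 of 3 libraries). The size differed between libraries, since the nanobody values of 246 and 269 CPM lay closer together than the pairs of the other libraries. In the Hey gate Dref was at 88.6, 104 and 84.7 CPM (log2 -1.85, adjusted p = 8.86e-07) and in the nSyb gate at 35.8, 40.1 and 41.5 CPM (log2 -1.09, adjusted p = 5.93e-05). From the ase gate on, Dref was thus lower at each further step, like most of the set.

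How the sums are scaled shifts all genes alike. With UMI totals in place of TMM factors, the median over all genes moved by about 0.20 on the log2 scale from the dpn to the ase gate, from 0.09 to -0.11, and calls over all genes went from 2394 higher and 1722 lower to 1422 higher and 2527 lower. Members called were then 1 higher and 32 lower, with Dref still the one that was higher (log2 0.49, adjusted p = 0.0118). From the ase to the Hey gate the all-gene calls went from 2026 higher and 2244 lower to 2465 and 1714. From the Hey to the nSyb gate they went from 2692 higher and 2109 lower to 2199 and 2854, and members from 3 higher and 19 lower to 3 and 23. Gnf1, Slbp and E2f1 changed sign between these scalings in comparisons where they were not called.

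Other genes of replication, taken from a list of 38 names of which 35 were listed and 34 tested, followed in part. From the dpn to the ase gate 27 of 34 were lower and 3 higher, with a median of -1.20. The lowest were Ts, thymidylate synthase, at -2.67, Ctf4, which links helicase and polymerase, at -2.58, and dnk, a deoxynucleoside kinase, at -2.42. The highest were Top1, topoisomerase I, at 0.59, Cdc7, the kinase that fires origins, at 0.44, and chif, its activating subunit, at 0.26. From the ase to the Hey gate 31 of 34 were lower and 1 higher, led by Ts (-2.83), the checkpoint mediator Claspin (-2.72) and the primase subunit Prim1 (-2.57). At the other end stood Top1 (0.25, called higher), mute (-0.11) and PolD3 (-0.24). From the Hey to the nSyb gate 15 of 34 were lower and 1 higher, with elg1, which unloads the clamp, at -2.91 and the GINS subunit Psf1 at -2.52, while Cdc7 was called higher at 0.38 and Prim2 (0.18) and Chrac-14 (0.17) were not called. The unmatched member's counterpart RPA1 stood at 135, 107 and 122 CPM over all dpn-gate cells and at 59.6, 45.9 and 54.1 CPM over all ase-gate cells.

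Within the dpn gate the members rose and fell together from cell to cell. Cells with at least 3000 UMIs were ranked, for each member in turn, by the share of the other members, and the top tercile of cells was compared with the bottom tercile in each library. Of the 33 members, 29 in control and 30 in each of the other libraries were more than 2-fold higher in the top tercile, as ratios of CPM plus 5. The same held for 6.19% of other genes in control, 4.94% in the mud-labelled library and 4.45% in the nanobody library. All genes share each cell's depth, and the terciles differ in it, with medians of 10074.5 and 18778 UMIs in control, 8821 and 13810.5 in the mud-labelled library, and 9976 and 11544 in the nanobody library. These are descriptions of cells within 1 library each, and no test is given.

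Among the members with wide spans were Orc2, dup, Mcm7 and RnrS. Orc2 went from 12.4 to 115.1 CPM in control, from 16.6 to 119 CPM in the mud-labelled library and from 14.02 to 119 CPM in the nanobody library. For dup the values were 38.6 and 332 CPM, 38.1 and 336 CPM, and 59.7 and 382 CPM, and for Mcm7 they were 40.6 and 367 CPM, 76.6 and 415 CPM, and 57.8 and 356 CPM. RnrS ran from 75.8 to 547 CPM, from 45.8 to 413 CPM and from 87.7 to 557 CPM. For each of these genes every top-tercile value lay above every bottom-tercile value. PCNA was at 299 and 1051 CPM in control, 232 and 1048 CPM in the mud-labelled library and 304 and 1115 CPM in the nanobody library, a smaller ratio. The transcription factors spanned less: E2f1 went from 673 to 1300.1 CPM in control and Dp from 214 to 352 CPM, both under 2-fold, while Dref was lower in the top tercile of each library (245 and 174 CPM, 238 and 178 CPM, 257 and 206 CPM).

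**Figure D4:**
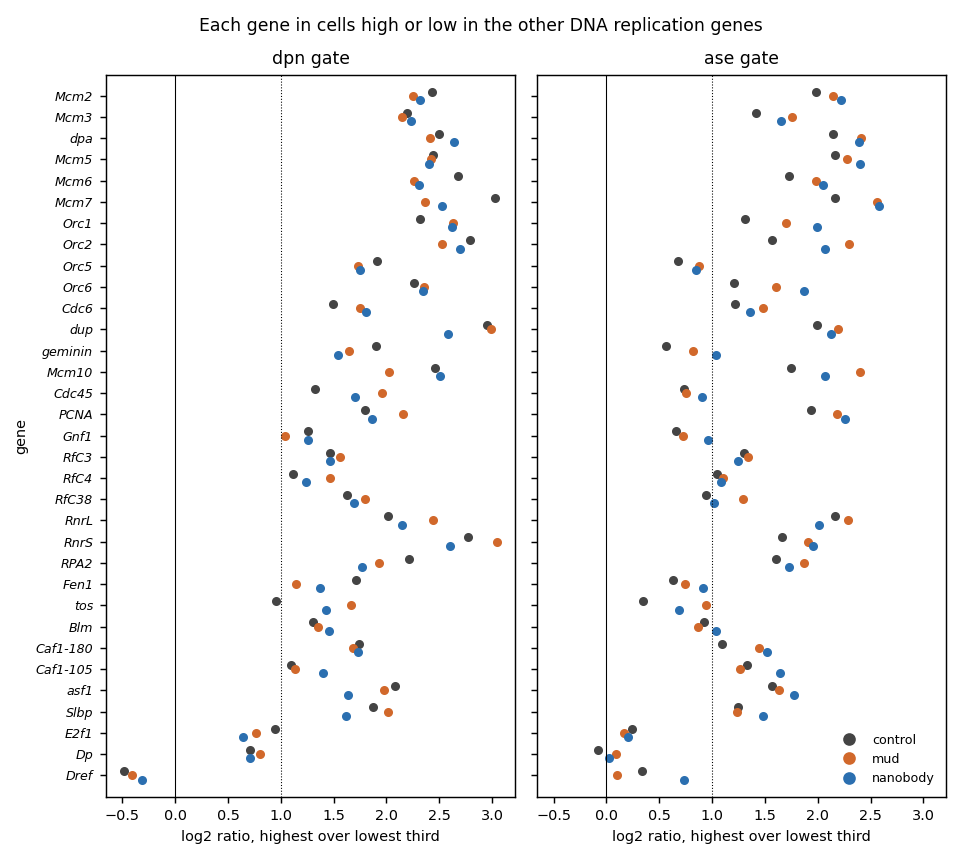
Log2 ratio of each member's CPM plus 5 between the top and the bottom tercile of cells, ranked by the share of the other members, in the dpn and ase gates of the 3 libraries; the dotted line marks 2-fold. In the dpn gate 29 or 30 of 33 members lie past the line in each library, and Dref lies left of 0; in the ase gate 20 to 25 do.

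In the ase gate the same ranking gave smaller median log2 ratios of CPM plus 5, at 1.30, 1.48 and 1.64 against 1.90, 1.95 and 1.75 in the dpn gate. On that scale, past 2-fold were 20 of the 31 members that reached 20 CPM in either tercile in control, 23 of 33 in the mud-labelled library and 25 of 33 in the nanobody library, against 2.17%, 2.08% and 3.18% of other genes. PCNA went from 76.7 to 308 CPM, from 76.3 to 365 CPM and from 68.2 to 344 CPM. Mcm7 went from 11.2 to 67.2 CPM, from 16.6 to 122 CPM and from 10.7 to 89.3 CPM. PCNA thus had a larger ratio than in the dpn gate in each library. E2f1, Dref and Dp were under 2-fold in all 3 libraries, Dp at 247 and 234 CPM in control.

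Other transcripts moved along the same ranking, and their values describe which cells stood at each end. In the dpn gate CycE, the cyclin that starts S phase, went from 289 to 1418 CPM in control, from 197 to 1354 CPM in the mud-labelled library and from 258 to 1511 CPM in the nanobody library. The Cdk2 inhibitor dap went the other way, from 761 to 65.2 CPM, from 462 to 48.5 CPM and from 598 to 108 CPM, as did pros, a factor of differentiating progeny, from 1945 to 479 CPM in control. All 7 neuron markers were more than 2-fold lower in the top tercile of each library, with median log2 ratios of -2.53, -3.12 and -3.13. The 35 mitosis genes shifted less than the members, with medians of 0.89, 1.00 and 0.93, against member medians of 1.90, 1.95 and 1.75. How far the bottom tercile of the dpn gate consists of other cells than neuroblasts was not tested. In the ase gate 6 neuroblast markers reached 20 CPM in either tercile. Of these 4 in control, 3 in the mud-labelled library and 4 in the nanobody library were more than 2-fold higher in the top tercile, and 0 lower. Among them mira went from 35.4 to 193 CPM, from 70.3 to 312 CPM and from 31.8 to 198 CPM. How far that tercile holds neuroblasts without a dpn UMI was not tested.

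Across the 15 sums of 5 gates and 3 libraries, the levels of most members ran in parallel. Pearson's r of log2(CPM + 5) with the sum of the other members was 0.925 or more for 29 of the 33, and lower for Caf1-180 (0.895), E2f1 (0.70), Dref (0.54) and Dp (0.32). These points share libraries and gates, so r is a description and carries no p. Of 6256 genes at 20 CPM or more in any sum, the 5 non-members with the highest r were dnk (0.982), CG13690 (0.981), PolE2, a subunit of DNA polymerase epsilon (0.981), RPA1 (0.981) and cid, the centromeric histone H3 variant (0.977). In the dpn gate of control these stood at 292, 118, 32.8, 135 and 59.4 CPM. In all, 46 non-members had an r above 0.95.

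Between genotypes, the member share in the dpn gate was lower in both altered libraries, and that in the ase, Hey and nSyb gates was at or above control, a direction that turned under some alternatives. In the dpn gate the ratio of the pooled share to control was 0.869 (95% interval 0.859 to 0.879) in the mud-labelled library and 0.937 (0.926 to 0.948) in the nanobody library. In the ase gate the ratios were 1.06 (1.05 to 1.07) and 1.02 (1.01 to 1.03), in the Hey gate 1.13 (1.11 to 1.16) and 1.01 (0.991 to 1.03), and in the nSyb gate 1.24 (1.23 to 1.26) and 1.04 (1.03 to 1.06). The nanobody ratio in the ase gate turned to 0.986 with TMM and 0.981 with median-of-ratios factors, and that in the Hey gate to 0.986 without Dp. The mud-labelled ratio in the Hey gate was 0.999 in cells of exactly 1 gate without Dp. These exact conditional intervals cover counting error only, since the spread between animals or preparations of a genotype cannot be seen from 1 library. Cell medians in the dpn gate were 0.649%, 0.585% and 0.586%, and the mean over cells gave ratios of 0.926 and 0.983, closer to 1. The dpn gate of the mud-labelled library held the highest share of cells with under 12% of UMIs on ribosomal protein genes, at 24.2% against 18.4% in control and 21.5% in the nanobody library. Without those cells the ratios were 0.865 and 0.926. Of the 7 neuron markers, elav was lower in the dpn gate of the mud-labelled library than in control (609 against 819.9 CPM) and the other 6 were higher, nSyb at 81.6 against 33.8 CPM and brp at 52.1 against 21.8 CPM among them, and their part in the ratio was not tested.

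Most members were below control in the dpn gate. In the mud-labelled library 29 of 33 members had a log2 ratio below 0 and the median was -0.28, against -0.03 over all genes, of which 54.6% were below 0. In the nanobody library it was 27 of 33 with a median of -0.13 against 0.02, and 44.4% of all genes were below 0. Other lists moved likewise in the mud-labelled library, with 28 of 35 mitosis genes below 0 (median -0.27) and 26 of 32 other replication genes (median -0.19). No member was lower by more than 1.5-fold in either library. Past 1.5-fold higher was 1 member in the mud-labelled library, Dp, and none in the nanobody library, against 7.68% of all genes past it in the first (6.44% higher, 1.24% lower) and 1.46% in the second (1.1% higher, 0.366% lower). The lowest ratios in the mud-labelled library were those of RnrS (340 CPM in control, 235 CPM in the mud-labelled library and 310 CPM in the nanobody library), of Caf1-105 (74.0, 50.8 and 59.5 CPM) and of E2f1 (1158, 854 and 1027 CPM). Among PCNA (776, 718 and 742 CPM), RnrL (225, 172 and 196 CPM), dup (223, 204 and 223 CPM), geminin (330, 269 and 310 CPM) and Dref (198, 186 and 228 CPM), only Dref in the nanobody library was above control by more than 0.1 on the log2 scale.

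**Figure D5:**
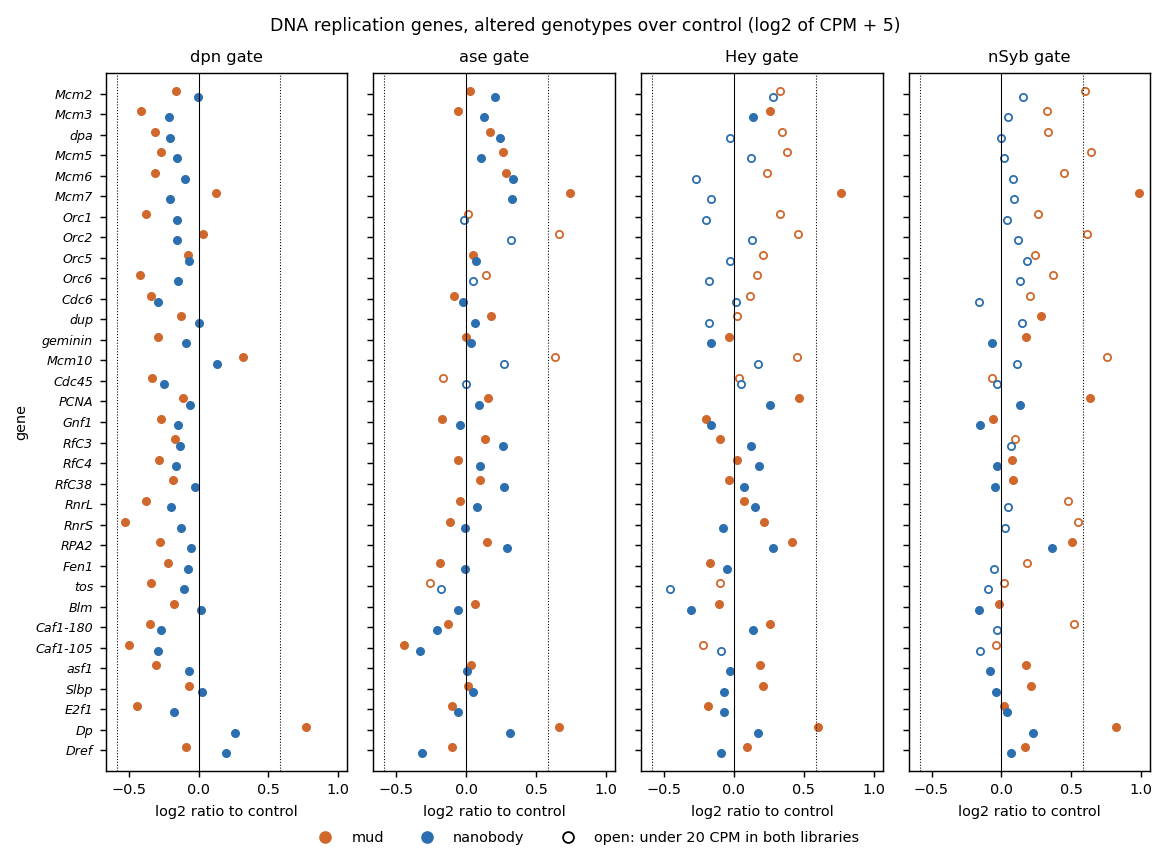
Log2 ratio of CPM plus 5 to control for each member in 4 gates, for the mud-labelled library and the nanobody library, with 1 library each and no test; open points are under 20 CPM in both libraries and dotted lines mark 1.5-fold. Dp lies to the right in each gate for the mud-labelled library, most other members lie left of 0 in the dpn gate, and Mcm7 lies past the line in the other gates.

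Dp stood apart from the set in the mud-labelled library in every gate shown. Over all cells of the dpn gate it was at 290 CPM in control, 497 CPM in the mud-labelled library and 349 CPM in the nanobody library, a 1.72-fold (1.63 to 1.80) and 1.20-fold (1.14 to 1.27) difference. In the ase gate the folds were 1.59 and 1.25, in the Hey gate 1.53 and 1.13, and in the nSyb gate 1.78 and 1.18. The gene lies on chromosome 2R from 13222433 to 13228202 on the forward strand (BDGP6.54) and overlaps Fsn on the other strand. In barcodes of 20 to 200 UMIs Dp was also highest in the mud-labelled library, at 231 CPM against 168 CPM in control and 182 CPM in the nanobody library. Without Dp the member share ratio of the mud-labelled library to control was 0.833 in the dpn gate and 1.00 in the ase gate.

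Mcm7 was the other member past 1.5-fold in more than 1 gate. Its ratios in the mud-labelled library were 1.09 (1.03 to 1.16) in the dpn gate, 1.78 (1.65 to 1.91) in the ase gate, 1.89 (1.58 to 2.26) in the Hey gate and 2.62 (2.31 to 2.97) in the nSyb gate. In CPM, the ase gate had 33.9 in control, 60.2 in the mud-labelled library and 43.8 in the nanobody library. Members past the fold in the ase gate were thus Mcm7 and Dp of 27 at 20 CPM or more (7.42% of all genes were past it, 5.95% higher and 1.47% lower). In the Hey gate they were the same pair of 19 (7.76% of all genes, 6.46% higher and 1.31% lower), and in the nSyb gate Mcm7, PCNA and Dp of 14 (5.04% of all genes, 4.33% higher and 0.705% lower). No member was past it in the nanobody library, of 27, 18 and 12 members at 20 CPM or more, in the ase, Hey and nSyb gates. Of all genes 1.76%, 1.45% and 1.22% were past it there, 1.26%, 0.869% and 0.421% higher and 0.502%, 0.579% and 0.801% lower. Below 20 CPM, Orc2 and Mcm10 were also higher in the ase gate of the mud-labelled library, at 1.90-fold (1.65 to 2.18) and 1.83-fold (1.60 to 2.09).

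The higher share in the nSyb gate of the mud-labelled library was smaller in the cells of that gate alone, and also smaller without Dp. PCNA stood at 45.3, 73.2 and 50.2 CPM over all nSyb-gate cells. Over the cells that met the nSyb gate alone it stood at 25.8, 31.5 and 31.1 CPM. In those cells 5 of the 11 members at 20 CPM or more were above control in the mud-labelled library and 6 below. Of those 11, only Dp, at 190, 332 and 221 CPM, was past 1.5-fold. Among the members under 20 CPM, 6 were below control in the mud-labelled library, dup and Cdc45 among them, and the others were above. Those above included all 6 MCM genes, with Mcm7 at 2.13, 5.28 and 3.17 CPM, and both reductase subunits, with RnrS at 3.55, 6.09 and 4.79 CPM. The share ratio was 1.15 in the cells of the nSyb gate alone, and likewise 1.15 over all nSyb-gate cells without Dp. With both changes it was 1.03. Cells that met both the dpn and the nSyb gate were 141 in the mud-labelled library, 49 in control and 86 in the nanobody library. Their part in the ratio was not tested.

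The repo gate, with 89, 107 and 59 cells, had a member share of 0.249%, 0.214% and 0.185%, with cell medians of 0.153%, 0.159% and 0.171%. The pooled order was the reverse of the order of the medians. PCNA was at 278, 249 and 183 CPM in it, below the dpn gate in each library. In the mud-labelled library 4 of 29 members at 20 CPM or more (Mcm5, RPA2, Fen1 and Caf1-180) were past 1.5-fold lower and none higher, where 22.3% of all genes were past it, 12.3% lower and 9.99% higher. In the nanobody library 8 of 29 were past it, all lower, where 24.3% of all genes were past it, 13.1% lower and 11.3% higher. These ratios rest on few cells.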

How the data were processed

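Raw UMI counts per gene and barcode were deposited by the authors, 1 matrix a library, made with Cell Ranger 9.0.1 per the file headers. The genome build behind them is not given in the sources used here. Gene positions come from Ensembl's BDGP6.54 annotation, which held 13976 of the 13988 listed features. Barcodes with at least 1000 UMIs, at least 500 genes and at most 20% mitochondrial UMIs were called cells. Called cells held 108519041 UMIs in control, 113014038 in the mud-labelled library and 113544220 in the nanobody library. Doublets were kept, and removing the cells with the highest simulated-doublet scores (5.76% to 6.07% of cells) was an alternative.

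UMIs of cells in exactly 1 gate were summed by gate and library into 15 sums. edgeR 4.0.16 (quasi-likelihood test, TMM factors, library as a block, R 4.3.3) gave Benjamini-Hochberg adjusted p-values over 7912 genes, and every adjusted p in the text is from it unless DESeq2 is named. The procedure was also run on counts simulated with known folds in the ase sums only and without library effects. That run does not give its error rates in these data. The 3 sums of a gate come from different genotypes. All 5 gates, the repo gate included, entered the same fit and share its dispersion estimate. Each SE was derived from the log2 fold change and the F statistic of that fit. With library as a block, the test measures how gate differences vary across the 3 libraries, over all 5 gates and not only those compared. Genotype and library cannot be told apart in that spread. Genotypes were compared as differences of log2(CPM + 5) for genes at 20 CPM or more, at a fold of 1.5, which understates changes of low genes. Intervals are 95% exact Poisson, Clopper-Pearson or conditional binomial and cover counting error only. Alternatives were DESeq2 1.42.0 and other factors, filters, gates, thinning, doublet removal and leaving out each library. The fit on UMI totals was added after seeing the data. The share ratios without Dp were not planned either, nor were the share alternatives in the Hey and nSyb gates. The same holds for members past 1.5-fold in cells of exactly 1 gate. Other tools were Python 3.11.15, numpy 2.4.6, scipy 1.17.1, pandas 2.3.3 and scikit-learn 1.9.0.

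The text names PCNA, RnrL, dup, geminin, E2f1, Dp and Dref, the highest and lowest member of each role in each gate comparison, the 5 genes most like the set, and the 3 highest and lowest of the other replication genes. 1 gene that this rule names is not reported here. Mcm7, Orc2, Mcm10 and others named outside that rule were chosen after their values were seen. The members and all lists were chosen with earlier results of these data known.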

Additional observations from a re-analysis of the deposited data

Results flagged for a closer look

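The member share moved in opposite directions between gates. In the mud-labelled library its ratio to control was 0.869 in the dpn gate, but 1.06 in the ase gate, 1.13 in the Hey gate and 1.24 in the nSyb gate. In the nanobody library it was 0.937 in the dpn gate, but 1.02 in the ase gate and 1.04 in the nSyb gate. The nanobody ratio in the ase gate turned to 0.986 with TMM and 0.981 with median-of-ratios factors, and was 1.00 without Dp, as was the mud-labelled ratio there. With 1 library a genotype these differences between gates were not tested.

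The members were also found in barcodes and cells that enter no comparison. In barcodes of 20 to 200 UMIs their share was 0.250% in the mud-labelled library and 0.257% in the nanobody library, above 0.223% in control. In called cells of no gate it was 0.196% and 0.175%, above 0.170% in control.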

How the results depend on the processing

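The dpn-gate share ratio of the mud-labelled library to control (0.869) was 0.895 in cells of exactly 1 gate, 0.850 with stricter gates, 0.892 thinned after gating, 0.830 gated on thinned counts, 0.850 without E2f1, Dp and Dref, 0.833 without Dp, 0.926 as the mean over cells and 0.859 with TMM factors. That of the nanobody library (0.937) was, in the same order, 0.956, 0.925, 0.996, 0.902, 0.926, 0.926, 0.983 and 0.914, and 0.915 with median-of-ratios factors. In the ase gate the mud-labelled ratio was 1.08 without likely doublets, 1.07 in cells of exactly 1 gate, 1.05 with stricter gates, 1.04 without the 3 transcription factors, 1.00 without Dp and 1.02 in cells of exactly 1 gate without Dp. The nanobody ratio there was 1.04 thinned after gating, 1.07 gated on thinned counts, 1.06 without the transcription factors, 1.00 without Dp and 1.01 in cells of exactly 1 gate without Dp. It turned to 0.986 with TMM and 0.981 with median-of-ratios factors. The mud-labelled Hey-gate ratio turned to 0.999 in cells of exactly 1 gate without Dp. The cause of these shifts was not tested.

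Members called between the nSyb and Hey gates fell to 14 after thinning, which leaves fewer UMIs. Of all 6482 genes tested there, 1778 were called higher and 1466 lower. Members past 1.5-fold in the mud-labelled library were, on the scale of CPM plus 5, 0 at 2-fold in each of the dpn, ase, Hey and nSyb gates, although Mcm7 in the nSyb gate was 2.62-fold higher as a plain ratio. In the ase gate they were 1 with a pseudocount of 20 CPM, 4 with no filter and 4 in cells of exactly 1 gate. In the Hey gate they were 0 with that pseudocount and 1 at 50 CPM or more. In the nSyb gate they were 1 with that pseudocount, 7 with no filter and 1 in cells of exactly 1 gate. Leaving out each library in turn gave 32 to 33, 31 to 32 and 21 to 23 members called in the 3 gate comparisons. No called member reversed in any of the 12 alternatives. The gate fits are paired by library through the library block, and without it 32, 31 and 21 members were called. Between genotypes no paired analysis was possible because each genotype has 1 library.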

Other observations

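Mitosis genes followed another course than the DNA replication genes. Of 35 listed and tested, 13 were lower and 4 higher in the ase than in the dpn gate (median log2 -0.20), 33 were lower in the Hey than in the ase gate (-1.15), and 33 were lower and 1 higher in the nSyb than in the Hey gate (-1.99), all by edgeR's adjusted p. Of 11 genes of cell cycle entry and exit, 5 were lower and 4 higher from the dpn to the ase gate. CycE, the cyclin of S phase entry, was lower there (log2 -3.71, adjusted p = 2.16e-08), while the Cdk2 inhibitor dap (2.06) and fzr, an activator of the anaphase-promoting complex (1.04), were higher.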
